A study of Homo sapiens with 16 samples.

Results

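The SR proteins and the heterogeneous nuclear ribonucleoproteins (hnRNPs) are the main families of RNA-binding splicing factors, and their genes were examined in 2 breast cancer cell lines cultured in low or high glucose. Members were chosen by name: 11 genes whose symbol is SRSF followed by a number and 22 genes whose symbol starts with HNRNP, 33 of the 18332 genes of the table. Pseudogenes and antisense genes with such names, 19 in all, were left out, and so was HNRNPD. MDA-MB-231 and MDA-MB-468 are established human breast cancer cell lines whose labels give them as estrogen receptor negative. Each line was grown in T25 flasks for 48 hours in medium with glucose at 5 mM (low glucose, the control condition) or at 25 mM (high glucose, which stands for hyperglycemia). The study's general account of such cultures gives media without serum, after conditioning of the cells in low glucose. Each of the 4 groups had 4 replicates, which gives 16 samples. The labels name no genetic change, no other agent and no osmotic control in any group. Each line stands for 1 tumor, so a difference between lines is a difference between these cultures. The labels do not say that replicates came from cultures begun on separate days, so p-values measure the spread between these samples, part of which may be technical.

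In general, SR proteins carry an RNA recognition motif and a stretch rich in arginine and serine, bind exonic enhancers and help U1 and U2 snRNPs find splice sites, and they are switched by phosphorylation through the SRPK and CLK kinases. The hnRNPs bind nascent transcripts, often at silencers, and many repress the use of the sites that SR proteins favor, so that the ratio of the families sets the choice of many alternative exons. Most genes of both families also carry conserved exons with premature stops, by which the protein can lower its own mRNA through nonsense-mediated decay. Several of them, SRSF1 and HNRNPA2B1 among them, are commonly abundant in breast tumors.

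Libraries held 14094597 to 24425916 reads (median 17505954), so 3 reads corresponded to 0.123 to 0.213 CPM (reads scaled to library size). VIM, a mesenchymal intermediate filament, was at 5247 to 5694 CPM in MDA-MB-231 and at most 2.19 CPM in MDA-MB-468. CDH1, the epithelial cadherin, was at 0.246 to 0.625 CPM in MDA-MB-231 and 123 to 135 CPM in MDA-MB-468, and ZEB1, FN1, EPCAM and KRT5 separated the lines in the same way. ESR1, the estrogen receptor gene, was at most 0.170 CPM in MDA-MB-231 and lay between 2.41 and 4.41 CPM in MDA-MB-468. PGR was not found by symbol.

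Reads on the 33 genes made up 0.818% ± 0.0191 (SD, n = 4) of all reads in low-glucose MDA-MB-231 and 0.772% ± 0.00714 in high-glucose MDA-MB-231. In MDA-MB-468 the share was 1.12% ± 0.0171 in low glucose and 1.17% ± 0.00594 in high glucose. The 4 high-glucose libraries lay below the 4 low-glucose ones in MDA-MB-231 (0.764% to 0.778% against 0.799% to 0.842%) and above them in MDA-MB-468 (1.16% to 1.17% against 1.098% to 1.138%). The hnRNP genes held most of these reads, 0.676% ± 0.0148 in low-glucose MDA-MB-231 against 0.143% ± 0.00461 for the SR genes. These are shares of RNA in bulk cultures, in which fewer cells of a state and less RNA per cell cannot be told apart.

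Levels were compared between genes only per length, as RPKM (reads scaled to the length of the canonical transcript and to library size). HNRNPA2B1 (ENSG00000122566, chr7:26210771-26241149, minus strand, in a GENCODE annotation lifted to GRCh37), a sorter and packager of RNA, was the highest hnRNP gene in 3 of the 4 groups, with 255 ± 7.70 RPKM in low-glucose MDA-MB-231 and 418 ± 4.94 RPKM in high-glucose MDA-MB-468. HNRNPA1 (ENSG00000135486, chr12:54673977-54680872, plus strand), the classic antagonist of SRSF1 in splice site choice, came next with 243 ± 2.25 RPKM in low-glucose MDA-MB-231, and HNRNPK, a binder of C-rich stretches, had 216 ± 7.47 RPKM there. In high-glucose MDA-MB-231 HNRNPA1 and HNRNPA2B1, at 225 ± 1.40 and 223 ± 3.29 RPKM, differed by less than the spread of HNRNPA2B1. The lowest hnRNP genes were the intron-poor HNRNPA1 relatives HNRNPA1L3, at 2.32 ± 0.119 RPKM, and HNRNPA1L2, at 6.12 ± 0.332 RPKM. Both share much sequence with other genes, which leaves these levels uncertain.

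The order of the SR genes differed between the lines. SRSF9 (ENSG00000111786, chr12:120899475-120933749, minus strand), a short SR protein, stood first in MDA-MB-231 with 126 ± 4.38 RPKM in low glucose, whereas it had 68.1 ± 1.46 RPKM in low-glucose MDA-MB-468. SRSF2 (ENSG00000161547, chr17:74730197-74733415, minus strand), which promotes exon inclusion and also acts in transcription elongation, stood second in MDA-MB-231 with 80.1 ± 2.40 RPKM and first in MDA-MB-468 with 127 ± 1.49 RPKM. SRSF5, SRSF4 and SRSF6 followed each other in low-glucose MDA-MB-231 at 40.5 ± 1.503, 39.5 ± 1.46 and 38.7 ± 2.01 RPKM, differences within their SDs. SRSF10 was the lowest of the well-detected SR genes, at 16.2 ± 0.955 RPKM. SRSF12 was close to absent from MDA-MB-231, with 4 reads in the 4 low-glucose libraries together and 2 in the high-glucose ones.

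**Figure D1:**
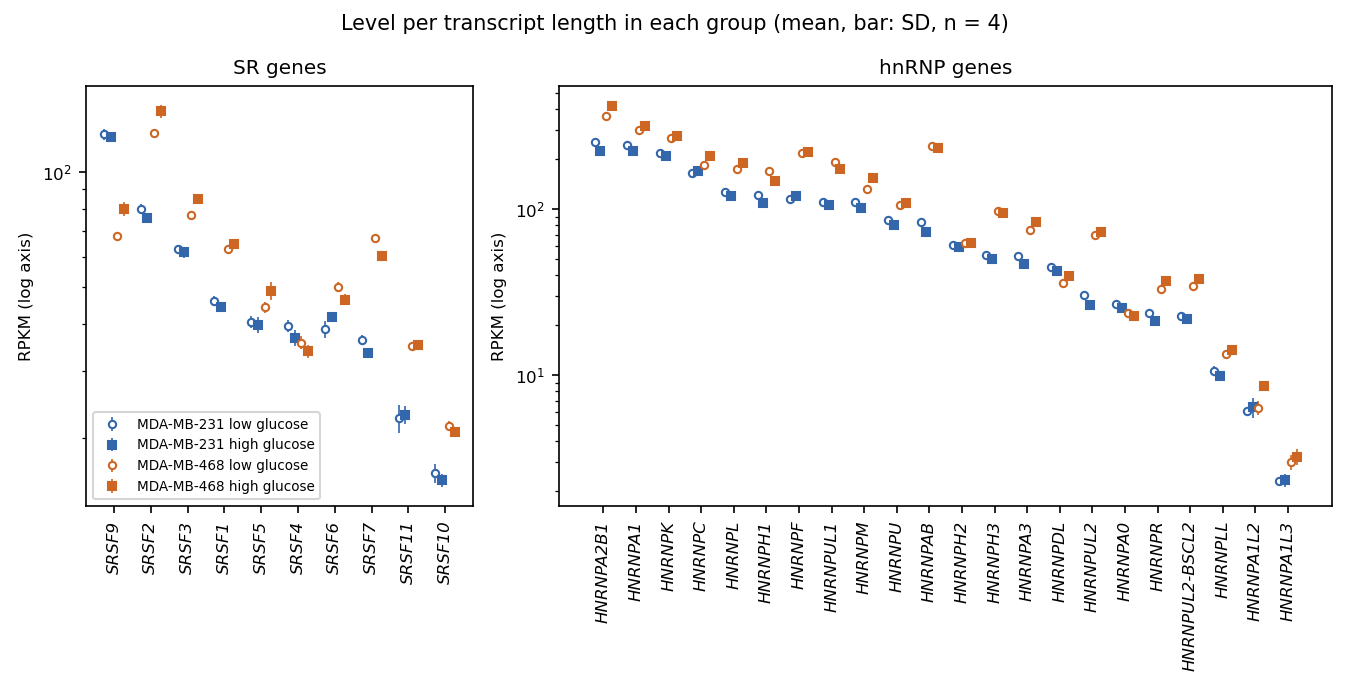
Level of each SR gene (left) and hnRNP gene (right) in RPKM, on a log axis, as the mean of 4 samples with a bar of 1 SD; blue is MDA-MB-231, orange MDA-MB-468, open symbols low glucose and filled symbols high glucose. SRSF9 is higher in MDA-MB-231 (126 ± 4.38 against 68.1 ± 1.46 RPKM in low glucose), HNRNPAB higher in MDA-MB-468, and SRSF12, near 0 in MDA-MB-231, is left out.

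The question of the glucose comparison was which members responded to high glucose, line by line. Of the genes in MDA-MB-231, 16 of the 32 members that passed the filter on low values were lower in high glucose and 0 were higher (limma adjusted p under 0.05), while SRSF12 was too low to test. Among all 14884 genes tested in this line, 9.37% were called lower and 5.71% higher, and among the 25% of genes with the highest mean, which held 28 of the 32 members, 20.3% were lower and 8.92% higher. Quantile rescaling moved the balance over all genes from 850 higher and 1395 lower to 1027 and 1114. The median log2 difference of the members was -0.10, against 0.0017 over all genes tested and -0.023 over the 25% with the highest mean. Fewer SR than hnRNP genes were called, 3 of 10 against 13 of 22. At an unadjusted p under 0.05, 1 member, SRSF6, was higher, and edgeR and DESeq2 on the recovered reads called 0 higher and 15 and 16 lower. Groups did not overlap in 16 members that were lower and 0 that were higher, against 11.1% and 7.63% of all genes tested. Leaving out high-glucose replicate 4 left 10 lower calls, and quantile rescaling left 9 and a median of -0.063.

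Among the hnRNP genes, HNRNPA2B1 had the smallest adjusted p in MDA-MB-231. Its normalized read counts (reads divided by a size factor of the library) were 16024, 16324, 15518 and 16402 in low glucose and 13611, 13751, 13930.4 and 13844 in high glucose. The groups did not overlap, and the mean fell by 14.2% (log2 difference -0.22, SE 0.0264, limma adjusted p = 1.61e-05). HNRNPAB (ENSG00000197451, chr5:177631534-177638164, plus strand), a relative of the A/B proteins that also binds single-stranded DNA, had 2587, 2546, 2612 and 2531 in low glucose and 2151, 2269.9, 2183 and 2183 in high glucose. All 4 high-glucose samples lay below all 4 low-glucose ones, and the mean fell by 14.5% (log2 difference -0.23, SE 0.0322, limma adjusted p = 9.67e-05), the largest percent change among the called members in this line. HNRNPUL2 (ENSG00000214753, chr11:62480102-62494929, minus strand), a scaffold-attachment relative of HNRNPU, had 2812, 2709, 2684 and 2777 in low glucose and 2294, 2281, 2336 and 2491 in high glucose. Here too the groups stood apart, and the mean fell by 14.4% (log2 difference -0.22, SE 0.0355, limma adjusted p = 0.000276).

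HNRNPA1 varied little between replicates in MDA-MB-231. Its counts were 15736, 15868, 15750.1 and 15764 in low glucose and 14337, 14406, 14219 and 14483 in high glucose, and the mean fell by 8.99%, well beyond that spread (log2 difference -0.14, SE 0.0240, limma adjusted p = 0.000795). HNRNPA3 (ENSG00000170144, chr2:178077422-178088687, plus strand), which carries mRNA along with HNRNPA2B1, had 5123, 5106, 4973 and 5511 in low glucose and 4513, 4577, 4664 and 4469 in high glucose. Its mean fell by 12.02% with no overlap (log2 difference -0.18, SE 0.0335, limma adjusted p = 0.00103), although low-glucose replicate 4 stood above the rest of its group. Of the remaining called hnRNP genes, HNRNPR, HNRNPH1 and HNRNPM had log2 differences of -0.17, -0.17 and -0.16, while HNRNPDL, HNRNPU, HNRNPL, HNRNPA0 and HNRNPUL1 lay between -0.12 and -0.10. HNRNPC, HNRNPF, HNRNPH2, HNRNPH3, HNRNPK, HNRNPLL, HNRNPA1L2, HNRNPA1L3 and HNRNPUL2-BSCL2 were not called, and HNRNPC, the core particle protein that coats long transcripts, had an interval for its log2 difference of -0.05 to 0.07.

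The 3 SR genes called in MDA-MB-231 were SRSF7, SRSF2 and SRSF4, all lower. SRSF7 (ENSG00000115875, chr2:38970741-38978636, minus strand), which also helps export mRNA, had 1438, 1516, 1514 and 1471 in low glucose and 1375, 1366, 1326 and 1318 in high glucose. The groups did not overlap, and the mean fell by 9.31% (log2 difference -0.14, SE 0.0367, limma adjusted p = 0.0150). SRSF2 had 2566, 2713, 2587 and 2623 in low glucose and 2405, 2488, 2444 and 2408 in high glucose, with every high-glucose value below every low-glucose one, and the mean fell by 7.09% (log2 difference -0.11, SE 0.0322, limma adjusted p = 0.0335). SRSF4 (ENSG00000116350, chr1:29474255-29508412, minus strand), one of the longest SR proteins, had 1612, 1543, 1512 and 1629 in low glucose and 1477, 1435, 1491 and 1352 in high glucose. It fell by 8.60% (log2 difference -0.13, SE 0.0412, limma adjusted p = 0.0411). SRSF1, the founding member of the family, was not called, with a log2 difference of -0.09 and an interval of -0.15 to -0.02. Calls near the threshold were sensitive: those of HNRNPUL1, SRSF4, HNRNPDL, HNRNPA0, SRSF2, HNRNPU and HNRNPL were lost under at least 2 of the 19 alternatives, and the other 9 were kept under all of them.

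In MDA-MB-468, 17 of the 33 members were higher in high glucose and 3 were lower, which were HNRNPH1, HNRNPUL1 and SRSF7. In this line 24.9% of all 15757 genes tested were called higher and 22.7% lower. In the 25% of genes with the highest mean, which held 29 members, the shares were 34.8% and 27.6%. The median log2 difference of the members was 0.093, against 0.00011 over all genes and 0.022 over the 25% with the highest mean. By family, 4 SR genes were higher and 1 lower of 11, and 13 hnRNP genes were higher and 2 lower of 22. Groups did not overlap in 13 members that were higher, against 22.2% of all genes tested, and in 4 that were lower, against 20.4%. Quantile rescaling left 13 higher and 4 lower calls and a median of 0.060.

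HNRNPA2B1 again had the smallest adjusted p, in the other direction from MDA-MB-231. Its counts in MDA-MB-468 were 20766, 21342, 19855 and 20859.9 in low glucose and 24607, 23998, 24697 and 24172 in high glucose. All high-glucose samples lay above all low-glucose ones, and the mean rose by 17.7% (log2 difference 0.24, SE 0.0271, limma adjusted p = 2.33e-06). HNRNPC (ENSG00000092199, chr14:21677295-21737653, minus strand) had 9108, 9556, 9133 and 8836 in low glucose and 10853, 10434, 10758 and 10619 in high glucose. It rose by 16.5% with no overlap (log2 difference 0.22, SE 0.0286, limma adjusted p = 8.82e-06). HNRNPM (ENSG00000099783, chr19:8509651-8553998, plus strand), known for the splicing switch of CD44 in breast cancer cells, had 5128, 5331, 5005 and 5143 in low glucose and 6123, 5766, 6175 and 6308 in high glucose. It rose by 18.3% (log2 difference 0.24, SE 0.0323, limma adjusted p = 1.21e-05), and its lowest high-glucose value stayed above its highest low-glucose value.

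HNRNPA3 had 6597, 7003, 6572 and 6865 in low glucose and 7604, 7592, 7811 and 7671 in high glucose, and rose by 13.5% (log2 difference 0.18, SE 0.0285, limma adjusted p = 5.82e-05). HNRNPR (ENSG00000125944, chr1:23630264-23670829, minus strand), a close relative of SYNCRIP, had 3964, 4206, 3990.2 and 3999.7 in low glucose and 4593, 4639, 4598 and 4537 in high glucose. Its low-glucose replicate 2 stood above the other 3 samples of that group but below all high-glucose samples, and the rise was 13.7% (log2 difference 0.19, SE 0.0289, limma adjusted p = 5.9e-05). The largest log2 difference of all members belonged to HNRNPA1L2, 0.47 (95% interval 0.28 to 0.66), at only 134 ± 11.98 counts in low glucose and 187 ± 11.2 in high glucose. All of the 50-base stretches in its transcript also occur in other genes, HNRNPA1 copies among them, so its reads cannot be told apart from theirs. HNRNPDL, HNRNPL, HNRNPA1, HNRNPUL2, HNRNPK, HNRNPLL and HNRNPUL2-BSCL2 were called higher, with log2 differences between 0.08 and 0.17.

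Of the SR genes in MDA-MB-468, SRSF9 changed most. Its counts were 1221, 1272, 1206 and 1232 in low glucose and 1407, 1441, 1500.5 and 1570.4 in high glucose. There was no overlap, and the mean rose by 20.02% (log2 difference 0.26, SE 0.0404, limma adjusted p = 5.2e-05). SRSF2 had 3803, 3751, 3708 and 3768 in low glucose and 4400.0, 4234, 4624 and 4263 in high glucose, a rise by 16.6% without overlap (log2 difference 0.22, SE 0.0319, limma adjusted p = 2.79e-05). SRSF3 (ENSG00000112081, chr6:36562130-36573377, plus strand), the smallest classical SR protein and a partner of the export receptor NXF1, had 5128, 5163, 5146 and 5094 in low glucose and 5643, 5648, 5949 and 5814 in high glucose. It rose by 12.3% (log2 difference 0.17, SE 0.0277, limma adjusted p = 0.000105), and its low-glucose samples were nearly alike. SRSF5 (ENSG00000100650, chr14:70193617-70238722, plus strand), whose mRNA is known to respond to growth signals, had 1079, 1022, 1006 and 1046 in low glucose and 1184, 1086, 1261 and 1163 in high glucose. These groups did not overlap by a narrow margin, with a rise by 13.1% (log2 difference 0.18, SE 0.0461, limma adjusted p = 0.00483).

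SRSF7 was the SR gene that went down in both lines. In MDA-MB-468 it had 2516, 2532, 2463 and 2424 in low glucose and 2285, 2185, 2323 and 2305 in high glucose, and the mean fell by 8.43% (log2 difference -0.13, SE 0.0324, limma adjusted p = 0.00396). HNRNPH1 (ENSG00000169045, chr5:179041179-179061785, minus strand), a binder of G-rich stretches, had 5911, 6066, 5847 and 6194 in low glucose and 5467, 5416, 5169.9 and 5279 in high glucose. It fell by 11.2% (log2 difference -0.17, SE 0.0297, limma adjusted p = 0.000163), and in MDA-MB-231 it fell by 11.3% (log2 difference -0.17, SE 0.0338, limma adjusted p = 0.00200). Calls of HNRNPLL, HNRNPUL2, HNRNPK, HNRNPA1, HNRNPUL2-BSCL2 and SRSF7 in MDA-MB-468 were lost under at least 1 of the 19 alternatives, and the other 14 were kept under all of them.

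**Figure D2:**
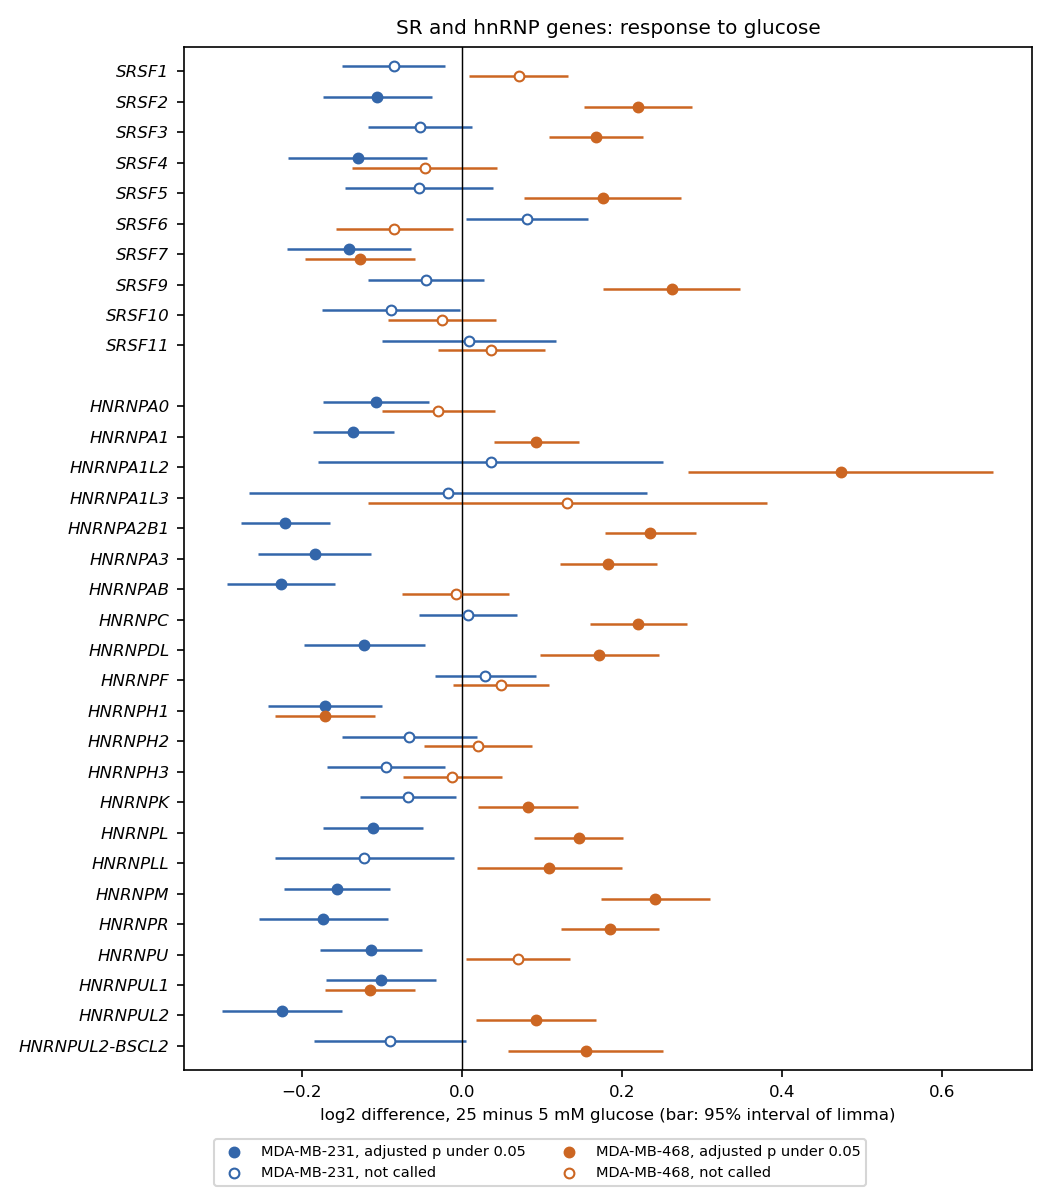
Log2 difference between 25 and 5 mM glucose (x axis) for each member in MDA-MB-231 (blue) and MDA-MB-468 (orange), with the 95% interval of limma as a bar and filled points for an adjusted p under 0.05; SRSF12 is left out as too low in MDA-MB-231. The filled blue points all lie left of 0, with 16 of them, and 17 of the 20 filled orange points lie right of it.

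Put side by side, 9 members were called lower in MDA-MB-231 and higher in MDA-MB-468, which were SRSF2, HNRNPA1, HNRNPA2B1, HNRNPA3, HNRNPDL, HNRNPL, HNRNPM, HNRNPR and HNRNPUL2. Of these, HNRNPA2B1, HNRNPA3, HNRNPM and HNRNPR kept both calls under all 19 alternatives, and the other 5 lost at least 1 call under some. SRSF7, HNRNPH1 and HNRNPUL1 were lower in both lines, of which HNRNPH1 kept both calls throughout. Another 4 were called only in MDA-MB-231 (SRSF4, HNRNPA0, HNRNPAB and HNRNPU) and 8 only in MDA-MB-468 (SRSF3, SRSF5, SRSF9, HNRNPC, HNRNPK, HNRNPLL, HNRNPA1L2 and HNRNPUL2-BSCL2). For 8 members neither comparison passed the threshold, and HNRNPF was one of them, with intervals of -0.03 to 0.09 in MDA-MB-231 and -0.01 to 0.11 in MDA-MB-468. The share of all genes with each of these joint patterns was not counted, so the patterns cannot be called particular to the members. Taken line by line, 9.37% of all genes tested were lower in MDA-MB-231, and 24.9% were higher and 22.7% lower in MDA-MB-468.

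A limma interaction over the 16 samples tested if the lines responded differently. This contrast uses the same samples as both responses. It was higher in MDA-MB-468 for 20 members and lower for 1, SRSF6, of 33, where 17% of all 17115 genes were called higher and 13.9% lower. In the 25% of genes with the highest mean the shares were 30.1% and 17.6%. The median over the members was 0.22, against -0.0036 over all genes and 0.044 over that 25%. Quantile rescaling brought the median to 0.13 and the higher calls to 15. The calls of SRSF1, HNRNPC, HNRNPK, HNRNPU and HNRNPUL2-BSCL2 were lost under it, and the other 16 of the 21 were kept under all 27 alternatives. HNRNPA2B1 differed most, in size and in adjusted p, with a difference of response of 0.46 (SE 0.0332, limma adjusted p = 3.53e-08). HNRNPM had a difference of 0.40 (adjusted p = 2.65e-06) and HNRNPA3 one of 0.37 (adjusted p = 4.64e-06). HNRNPA1L2, with its shared sequence and low counts, had 0.44 (adjusted p = 0.0204). HNRNPM had fallen in MDA-MB-231 by 10.2%, from 4782, 4761, 4688 and 4755 to 4123, 4233, 4203 and 4493.

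SRSF2 had a difference of response of 0.33 (adjusted p = 7.3e-06), HNRNPL one of 0.26 (adjusted p = 6.89e-06) and HNRNPA1 one of 0.23 (adjusted p = 3.4e-06). HNRNPL (ENSG00000104824, chr19:39327010-39342987, minus strand), a binder of CA repeats that controls the variable exons of CD45 in lymphocytes, had 4727, 4713, 4739 and 4603 in low glucose and 4213, 4491, 4338 and 4350.4 in high glucose in MDA-MB-231. In MDA-MB-468 its counts were 5963, 5863, 5959.5 and 5881 in low glucose and 6711, 6511, 6504 and 6458 in high glucose, so the groups stood apart in each line and in opposite order. SRSF1 passed this test (0.16, adjusted p = 0.00331) although neither of its responses had, -0.09 for MDA-MB-231 and 0.07 for MDA-MB-468. Its difference was 0.048 after quantile rescaling (adjusted p = 0.329). SRSF6, a regulator of tau and fibronectin exons, ran the other way, with responses of 0.08 and -0.08 and a difference of -0.17 (adjusted p = 0.0177). For the members lower in both lines the interval of the difference was -0.09 to 0.09 for HNRNPH1, -0.07 to 0.10 for SRSF7 and -0.10 to 0.07 for HNRNPUL1.

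**Figure D3:**
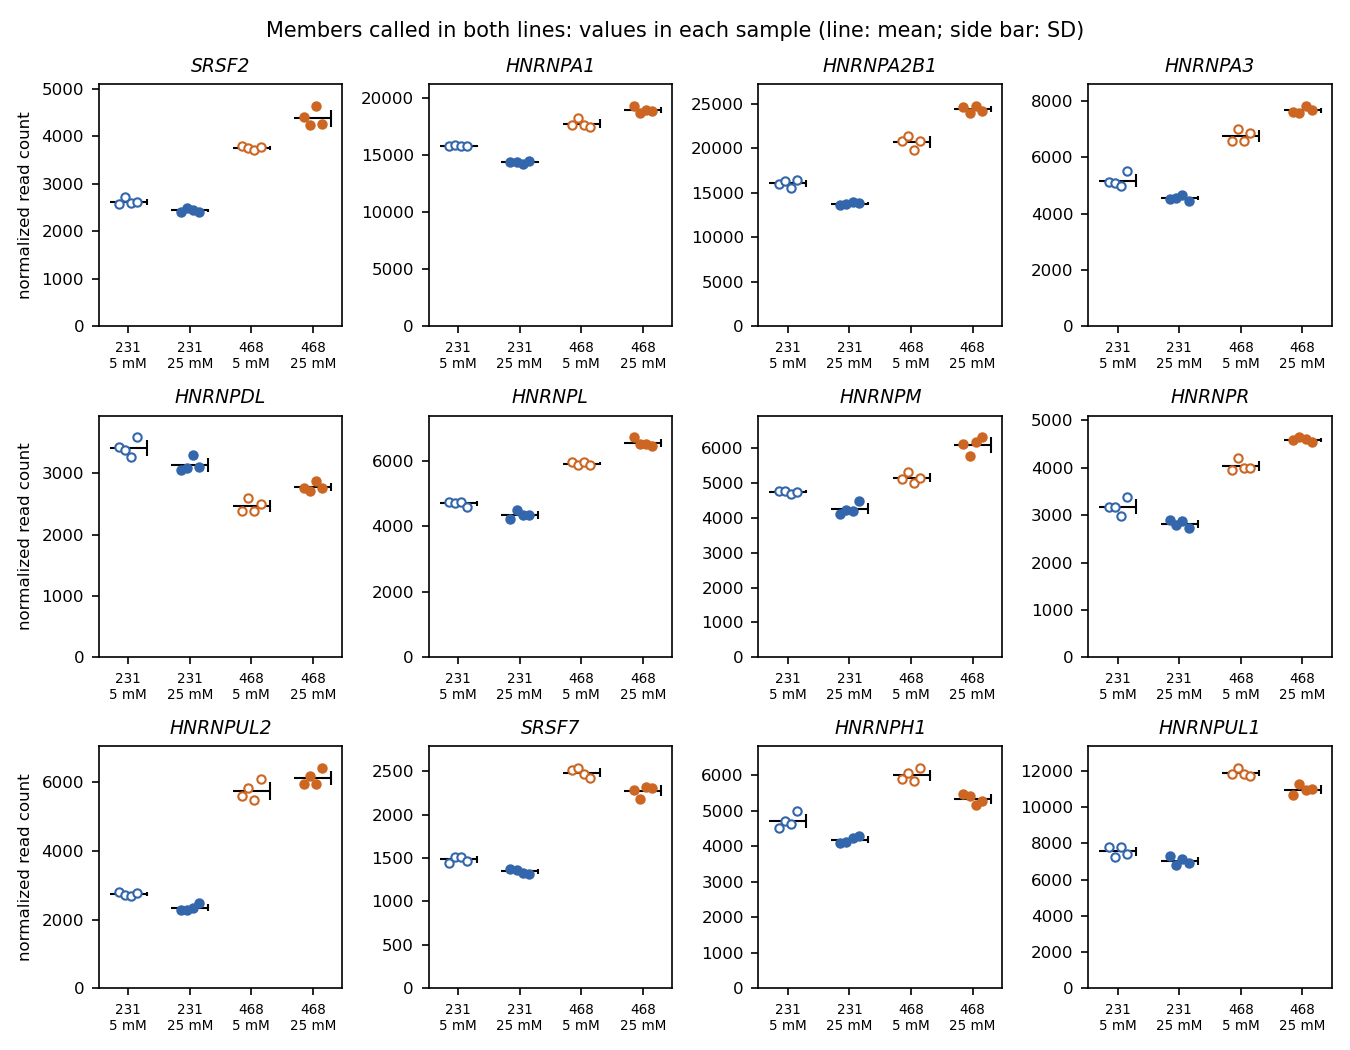
Normalized read count (y axis, from 0) in each of the 4 samples of each group for the 12 members called in both lines; open points are 5 mM and filled points 25 mM glucose, the horizontal line is the mean and the vertical bar beside it 1 SD. HNRNPA2B1 falls by 14.2% in MDA-MB-231 and rises by 17.7% in MDA-MB-468, whereas HNRNPH1 falls by 11.3% and 11.2%.

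The promoters of 6 of these genes are shown because the genes moved in opposite directions in the lines (HNRNPA2B1, HNRNPM, HNRNPA3 and HNRNPR, which kept both calls under all alternatives) or down in both (HNRNPH1, which kept both calls under all alternatives, and SRSF7, which lost the call in MDA-MB-468 under 1). They are RefSeq windows of 300 bases on GRCh38.p14, from 250 bases before the start of transcription to 50 after it, 5′ to 3′ on the strand of the gene. Where a gene has several starts the first listed was used (HNRNPH1 has 4 and SRSF7 has 2). They lie at chr7:26200697-26200996, minus strand (HNRNPA2B1), chr19:8444725-8445024, plus strand (HNRNPM), chr2:177212544-177212843, plus strand (HNRNPA3), chr1:23344235-23344534, minus strand (HNRNPR), chr5:179634735-179635034, minus strand (HNRNPH1) and chr2:38751445-38751744, minus strand (SRSF7). Capitals mark exact matches, on either strand, to the letters of the CCAAT box (CCAAT), the GC box (GGGCGG), the E-box (CACGTG) or an ETS site (CCGGAAG), and the window of HNRNPH1 holds none.
HNRNPA2B1: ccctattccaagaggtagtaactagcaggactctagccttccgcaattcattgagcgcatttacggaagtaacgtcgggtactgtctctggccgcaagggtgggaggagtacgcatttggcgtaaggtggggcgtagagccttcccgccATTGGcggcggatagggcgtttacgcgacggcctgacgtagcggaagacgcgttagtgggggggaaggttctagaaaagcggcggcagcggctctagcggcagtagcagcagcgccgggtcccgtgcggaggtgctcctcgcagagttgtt
HNRNPM: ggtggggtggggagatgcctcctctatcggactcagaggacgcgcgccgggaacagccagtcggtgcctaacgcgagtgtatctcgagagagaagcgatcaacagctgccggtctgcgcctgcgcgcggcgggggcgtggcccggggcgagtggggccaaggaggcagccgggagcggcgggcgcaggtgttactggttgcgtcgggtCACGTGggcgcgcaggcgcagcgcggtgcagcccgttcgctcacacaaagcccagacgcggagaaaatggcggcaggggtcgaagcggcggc
HNRNPA3: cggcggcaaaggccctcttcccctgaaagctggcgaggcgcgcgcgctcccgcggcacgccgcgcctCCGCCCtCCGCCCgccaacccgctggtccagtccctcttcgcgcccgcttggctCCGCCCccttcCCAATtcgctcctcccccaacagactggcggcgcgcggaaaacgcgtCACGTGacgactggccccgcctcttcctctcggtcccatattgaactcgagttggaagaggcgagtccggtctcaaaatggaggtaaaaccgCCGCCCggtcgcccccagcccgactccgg
HNRNPR: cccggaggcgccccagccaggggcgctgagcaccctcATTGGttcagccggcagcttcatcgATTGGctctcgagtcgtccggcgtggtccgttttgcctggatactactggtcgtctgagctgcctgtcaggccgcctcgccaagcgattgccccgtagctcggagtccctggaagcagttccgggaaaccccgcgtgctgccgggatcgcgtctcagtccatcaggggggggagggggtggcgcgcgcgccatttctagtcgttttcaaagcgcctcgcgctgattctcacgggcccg
HNRNPH1: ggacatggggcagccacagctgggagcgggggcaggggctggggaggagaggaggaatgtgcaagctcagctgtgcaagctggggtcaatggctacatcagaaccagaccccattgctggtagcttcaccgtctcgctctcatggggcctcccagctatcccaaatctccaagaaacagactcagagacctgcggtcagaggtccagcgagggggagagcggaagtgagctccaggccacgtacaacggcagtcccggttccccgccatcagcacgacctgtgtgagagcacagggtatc
SRSF7: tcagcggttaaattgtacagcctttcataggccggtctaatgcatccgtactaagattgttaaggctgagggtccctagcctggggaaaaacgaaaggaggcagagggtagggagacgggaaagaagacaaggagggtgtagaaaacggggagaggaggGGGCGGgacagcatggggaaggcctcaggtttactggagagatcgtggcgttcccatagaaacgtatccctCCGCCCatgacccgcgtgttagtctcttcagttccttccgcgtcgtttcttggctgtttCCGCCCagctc

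Of the 33 members 30 had a window in the RefSeq table, 7 of them among the 9 genes called in opposite directions. CCAAT was found in 15 of the 30 windows (50%), against 35.7% of all 27305 promoters, and in 5 of the 7. It was found in 1 of the 10 windows of SR genes, that of SRSF3. The GC box was found in 21 windows (70%, against 44.6% of all promoters) and in 4 of the 7. The E-box was found in 6 windows (20%, against 7.43%), all of them hnRNP genes, and 3 of the 7 held it, HNRNPM, HNRNPA3 and HNRNPDL. The ETS letters were in 4 windows (13.3%, against 10.7%) and the TATA box (TATAAA) in 4 (13.3%, against 11.95%), and the TATA box is not in capitals above. The windows of the members were richer in GC than promoters at large, with a median of 65.7% against 58.3%. The motifs can overlap each other, and a match describes letters only.

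The transcripts of the members had features that the choice by name did not use. A transcript annotated as a target of nonsense-mediated decay was present for 25 of the 33, among them 8 of the 9 genes called in opposite directions and all 3 called lower in both lines, against 6622 of 17418 genes with a known transcript length. The median canonical transcript was 3589 bases long with a GC content of 42.4%, against 2890 bases and 48.8% over those genes. Reads were summed per gene, so productive transcripts and those with a premature stop are counted together here. Some members share sequence with other genes, which leaves their counts uncertain: of their 50-base stretches, 32.7% for HNRNPA1, 37.4% for HNRNPL, 29.3% for SRSF1, 17.5% for HNRNPA3, 16.7% for SRSF6, 15.6% for HNRNPC, 14.6% for HNRNPH2 and 13.5% for HNRNPK occur elsewhere. HNRNPA1L3, at low counts, shares 51.6% of its stretches, and 48.6% occur in HNRNPA1. HNRNPUL2-BSCL2 is a read-through locus that shares 98.8% of its stretches, and 59.3% occur in HNRNPUL2. Of the stretches of HNRNPUL2, 45.3% occur in HNRNPUL2-BSCL2. The counts of both are therefore uncertain, although each is counted as a member. SRSF2, SRSF7, SRSF9, HNRNPA2B1 and HNRNPM share none.

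The lines were then compared at the same glucose level. These contrasts use the samples of the glucose comparisons again. In low glucose 24 members were higher in MDA-MB-468, 5 were lower and 4 were not called, where 45% of all 17115 genes were called higher and 40.4% lower (41.5% and 52% of the 25% with the highest mean). A loess correction for GC content turned this count to 18 higher and 8 lower, and under it the log2 differences of HNRNPA1, HNRNPK, HNRNPU and SRSF3 crossed 0. In high glucose 27 were higher and 4 lower, against 44.6% and 40.6% of all genes (43% and 50.2% of the 25% with the highest mean). Both counts of higher members include SRSF12, which passed the filter on low values only through its MDA-MB-468 samples. Its direction was thus set by the filter. The median log2 difference over the members was 0.27 in low glucose and 0.42 in high glucose, against 0.081 and 0.074 over all genes. Over the 25% of genes with the highest mean it was -0.13 and -0.088. In low glucose the median was 0.11 after the GC correction and 0.43 after quantile rescaling.

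HNRNPAB was the most different member with a high count. It had 2587, 2546, 2612 and 2531 counts in low-glucose MDA-MB-231 and 6618, 6911, 6472 and 6647 in low-glucose MDA-MB-468, a 2.59-fold higher mean (log2 difference 1.37, SE 0.0279, limma adjusted p = 8.79e-18). In high glucose the fold was 3.02, the fall in MDA-MB-231 having no counterpart past the threshold in MDA-MB-468 (-0.01, interval -0.07 to 0.06). HNRNPUL2 was 2.10-fold higher in low glucose (log2 difference 1.07, SE 0.0358, limma adjusted p = 9.76e-15). HNRNPF and HNRNPH3, relatives of HNRNPH1 in the G-run binding family, were 1.70-fold and 1.68-fold higher, with counts of 5154 ± 116 against 8758 ± 192 and 2159 ± 68.2 against 3619 ± 57.1. Both kept almost the same fold in high glucose, 1.72 and 1.78.

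SRSF12, a repressor that belongs to the SR family by sequence, was higher in MDA-MB-468 at very low depth. It entered the comparison of the lines only through MDA-MB-468, so its direction was set by the filter on low values. It had 15.8, 8.85, 4.38 and 12.6 normalized counts in low-glucose MDA-MB-468 and 2.14, 0, 0 and 1.03 in low-glucose MDA-MB-231. That is 47 reads against 4, a ratio of 12.6 per library size with a 95% interval of 4.596 to 48.0 that covers counting error only. In high glucose it was 46 reads against 2, a ratio of 25.0 (6.54 to 213).

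The 5 members lower in MDA-MB-468 in low glucose were SRSF9, HNRNPDL, HNRNPA0, SRSF4 and HNRNPH2. SRSF9 had 2409, 2568, 2494 and 2557 counts in MDA-MB-231 and 1221, 1272, 1206 and 1232 in MDA-MB-468, which is 0.492 of the level in MDA-MB-231 (log2 difference -1.02, SE 0.0345, limma adjusted p = 1.04e-14). In high glucose the ratio was 0.609. HNRNPDL, a paralog of the left-out HNRNPD, had a ratio of 0.723 (log2 difference -0.47, SE 0.0350, limma adjusted p = 8.32e-10), HNRNPA0 one of 0.799 (log2 difference -0.32, SE 0.0297, limma adjusted p = 1.48e-08) and SRSF4 one of 0.820 (log2 difference -0.29, SE 0.0414, limma adjusted p = 5.2e-06). HNRNPH2, an X-linked relative of HNRNPH1, differed least (log2 difference -0.09, SE 0.0348, limma adjusted p = 0.0223), its samples overlapped between the lines, and its log2 difference was 0.067 after quantile rescaling.

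**Figure D4:**
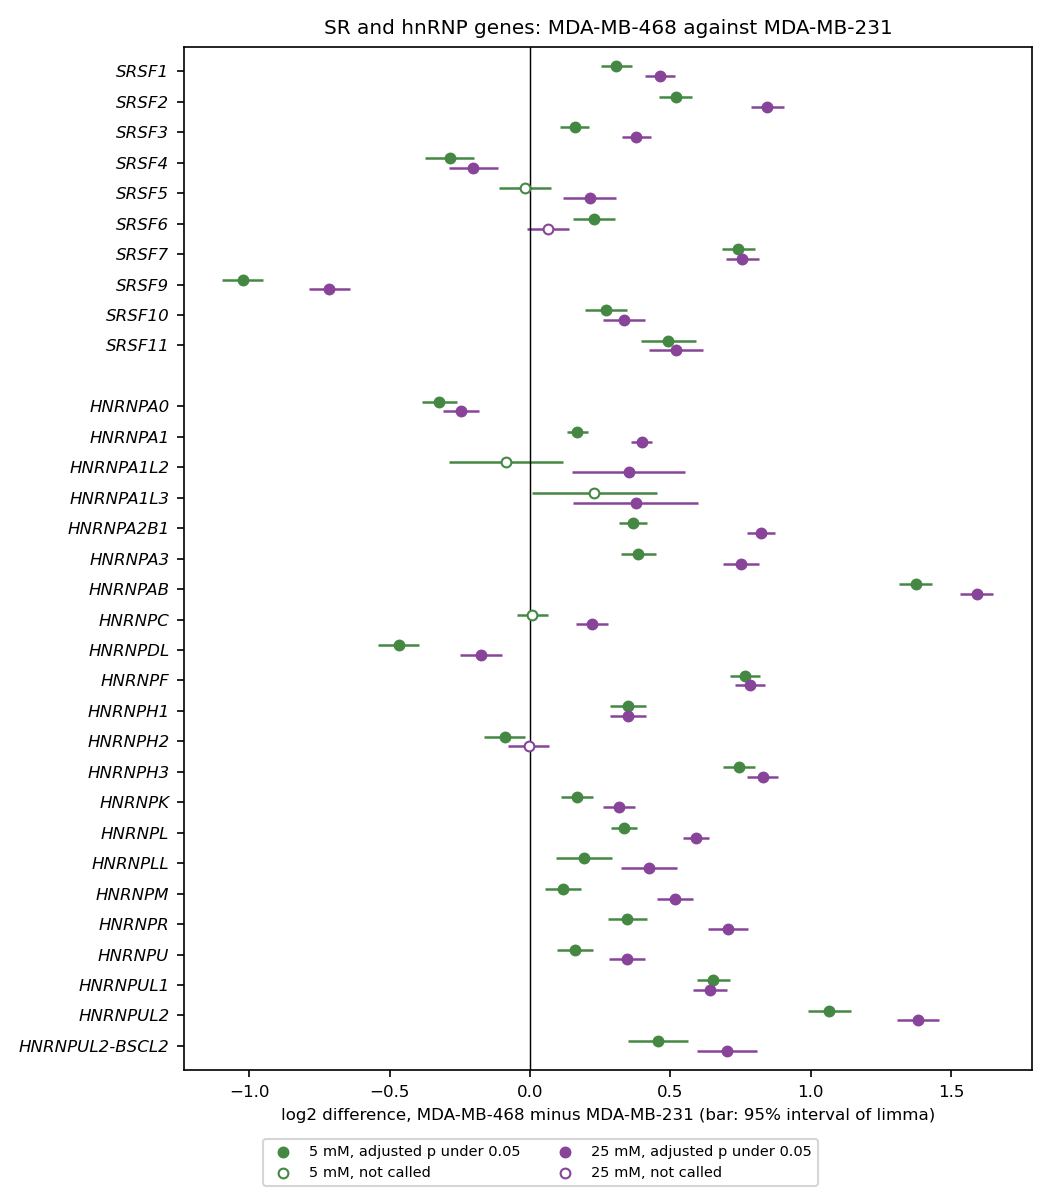
Log2 difference between MDA-MB-468 and MDA-MB-231 (x axis) for each member at 5 mM (green) and 25 mM glucose (purple), with the 95% interval of limma as a bar and filled points for an adjusted p under 0.05; SRSF12 is left out because of its low counts. SRSF9 lies farthest left at -1.02 and -0.72, and HNRNPAB farthest right at 1.37 and 1.59.

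Other genes of the splicing pathway were read from 7 lists, by their counts and medians alone. The core spliceosome, the snRNP and associated proteins that carry out the reaction, had 0 higher and 11 lower of 46 genes in MDA-MB-231 (median log2 difference -0.069) and 28 higher and 3 lower in MDA-MB-468 (median 0.13). The background in MDA-MB-231 was 9.37% lower over all genes tested and 20.3% among the 25% with the highest mean, and the share of this list lay near the second of these. In MDA-MB-468 it was 24.9% and 34.8% higher, and the share of this list lay above both. SNRPF and SNRPD1, proteins of the Sm ring, were lower in MDA-MB-231 (log2 difference -0.23, adjusted p = 0.00503, and log2 difference -0.21, adjusted p = 0.00809). EFTUD2, the GTPase of the U5 snRNP, rose in MDA-MB-468 from 1846 ± 80.9 to 2438 ± 81.6 counts (log2 difference 0.40, adjusted p = 2.77e-07), and SNRNP40, another U5 protein, rose too (log2 difference 0.36, adjusted p = 2.25e-05). The interaction was higher in MDA-MB-468 for 25 of these genes and lower for 1. For it the shares over all genes tested were 17% higher and 13.9% lower, and 30.1% and 17.6% among the 25% with the highest mean.

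Of the 9 SR protein kinases, which load SR proteins with phosphate, 0 were higher and 1 lower in MDA-MB-231 (median -0.0019), and 1 was higher and 3 lower in MDA-MB-468 (median 0.0024). The shares over all genes tested were 5.71% higher and 9.37% lower in MDA-MB-231, and 24.9% and 22.7% in MDA-MB-468. Among the 25% with the highest mean, 20.3% were lower in MDA-MB-231. SRPK1, the main cytoplasmic kinase, was lower in MDA-MB-231 (log2 difference -0.12, adjusted p = 0.0143). The nuclear kinase CLK4, in MDA-MB-468, fell from 324 ± 28.0 to 217 ± 18.6 counts (log2 difference -0.58, adjusted p = 1.78e-05) while CLK1 rose (log2 difference 0.24, adjusted p = 0.00496). The 20 SR-related proteins, which have arginine and serine stretches but are not classical members, had 0 higher and 6 lower in MDA-MB-231 (median -0.052) and 6 higher and 4 lower in MDA-MB-468 (median 0.016). The counts of this list in MDA-MB-468 lay near the shares over all genes. PNN, a protein of speckles and the desmosome, fell in MDA-MB-231 (log2 difference -0.32, adjusted p = 7.5e-05), as did SRRM1, a coactivator on exonic enhancers (log2 difference -0.25, adjusted p = 0.000230). RBM25 and RSRC1 rose in MDA-MB-468 (log2 difference 0.33, adjusted p = 3.96e-06, and log2 difference 0.24, adjusted p = 0.00363).

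The 9 hnRNP proteins that go under other symbols had 0 higher and 3 lower in MDA-MB-231 (median -0.093) and 3 higher and 2 lower in MDA-MB-468 (median 0.025). Of all genes tested, 5.71% were called higher and 9.37% lower in MDA-MB-231, and 24.9% and 22.7% in MDA-MB-468. SYNCRIP and PTBP1, the polypyrimidine tract binding repressor, were lower in MDA-MB-231 (log2 difference -0.16, adjusted p = 0.00296, and log2 difference -0.15, adjusted p = 0.00204). RALY, a relative of HNRNPC, rose in MDA-MB-468 (log2 difference 0.27, adjusted p = 3.39e-05) and RBMX fell (log2 difference -0.24, adjusted p = 1.24e-06). Of 21 other splicing regulators 19 were found; 2 were higher and 4 lower in MDA-MB-231 (median -0.077), and of 18 tested in MDA-MB-468 5 were higher and 6 lower (median -0.038). ESRP2, an epithelial regulator, rose in MDA-MB-231 at a low level, from 59.3 ± 7.22 to 80.6 ± 4.38 counts (log2 difference 0.44, adjusted p = 0.0274), and MBNL3 fell (log2 difference -0.28, adjusted p = 0.00379). In MDA-MB-468 RBM4, which has a near-identical neighbor in RBM4B, rose (log2 difference 0.54, adjusted p = 1.08e-07) and the neuronal PTBP2 fell (log2 difference -0.45, adjusted p = 0.000618).

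The 10 nonsense-mediated decay factors had 0 higher and 1 lower in MDA-MB-231 (median 0.019) and 1 higher and 6 lower in MDA-MB-468 (median -0.15). Over all genes tested, 5.71% were called higher and 9.37% lower in MDA-MB-231, and 24.9% and 22.7% in MDA-MB-468. Among the 25% with the highest mean, the lower shares were 20.3% and 27.6%. UPF1, the helicase at the center of the pathway, was the gene lower in MDA-MB-231 (log2 difference -0.13, adjusted p = 0.0365). In MDA-MB-468 its partner UPF2 fell from 1276 ± 48.8 to 945 ± 9.70 counts (log2 difference -0.43, adjusted p = 1.59e-07) and its kinase SMG1 fell too (log2 difference -0.40, adjusted p = 1.19e-05). Of 5 genes for nuclear import and export of SR and hnRNP proteins, 0 were higher and 2 lower in MDA-MB-231 (median -0.11), and 1 was higher and 0 lower in MDA-MB-468 (median 0.023). ALYREF, an mRNA export adaptor, and TNPO3, the import receptor of SR proteins, were lower in MDA-MB-231 (log2 difference -0.22, adjusted p = 0.00213, and log2 difference -0.13, adjusted p = 0.0384), and TNPO1, the import receptor of HNRNPA1, rose in MDA-MB-468 (log2 difference 0.13, adjusted p = 0.00697).

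**Figure D5:**
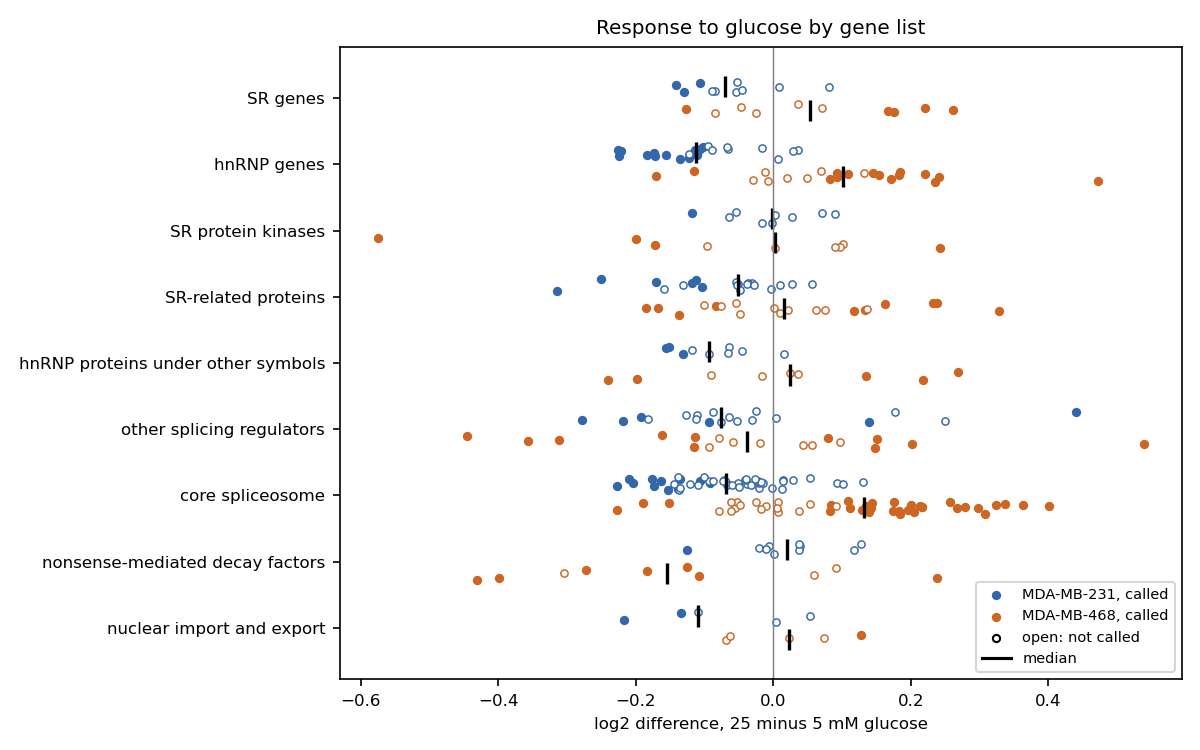
Log2 difference between 25 and 5 mM glucose (x axis) for every gene tested in the 2 families and the 7 other lists except SRSF12, 1 row each. SRSF12 is left out of the SR medians as well. Blue is MDA-MB-231, orange MDA-MB-468, filled points have an adjusted p under 0.05 and black bars are medians. The core spliceosome has 28 genes higher and 3 lower in MDA-MB-468 and 0 higher and 11 lower in MDA-MB-231.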

How the data were processed

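RNA of the 16 cultures was sequenced on an Illumina HiSeq machine, and the labels name hg38 and edgeR. The study's methods give a stranded kit, trimming and alignment with TopHat to hg19 in their account of tumors and do not repeat these for the cultures. The library kit, the aligner, the counting program and the use of strand for these samples are not given in the sources used here. The deposited values are a normalized signal: the authors scaled each library's read counts by 1 size factor. Within a tolerance of 0.01, 100% of values were whole multiples of 1 step (largest deviation 5.82e-05), so whole reads were recovered. Symbols were found for 17647 of 18332 IDs and transcript lengths for 17418.

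Genes reaching 0.5 CPM in at least 2 of the samples fitted were tested with limma 3.58.1 (R 4.3.3; lmFit, eBayes with trend) on log2(value + 1), two-sided, with Benjamini-Hochberg adjustment over all genes tested and a threshold of 0.05. Differences are on this scale, which understates those of low genes. Each line was fitted on its own 8 samples, and the difference of response and the lines on all 16. Members and lists were chosen with earlier results of these data known. Values are given per line for the 5 SR and 5 hnRNP genes of smallest adjusted p among those called, for the 6 smallest in the difference of response, for the 5 largest called differences each way between lines in low glucose, for the highest and lowest levels, and for up to 2 called genes per other list and line. SRSF8 was not matched by its current ID and is not analysed here. In simulations, 200 genes were given a log2 change of 1, of which 200 were recovered for the MDA-MB-231 comparison (5 false calls among 14693 genes), 200 for MDA-MB-468 (14 among 15576) and 193 for the difference of response (14 among 16899). Smaller changes, such as most of those reported here, were not simulated.

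Alternatives were a pseudocount of 0.5, no filter, a filter of 5 CPM, TMM and quantile scaling, edgeR 4.0.16 (quasi-likelihood) and DESeq2 1.42.0 on the recovered reads, a replicate block, loess correction for GC content or transcript length, the block with the length correction, and leaving out each replicate. Intervals are 95%.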

Additional observations from a re-analysis of the deposited data

Results flagged for a closer look

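Among 132 groups of 4 samples (33 members in 4 groups), 6 had a sample far from the others by Dixon's 95% criterion (the gap to the nearest sample over the range of the group, given here), where chance flags about 1 in 20. They were HNRNPA1L3 in low-glucose MDA-MB-231 replicate 3 (0.917), SRSF1 in the same library (0.833), SRSF5 in high-glucose MDA-MB-231 replicate 3 (0.868), SRSF6 in that library (0.889), HNRNPK in high-glucose MDA-MB-468 replicate 4 (0.852) and HNRNPR in low-glucose MDA-MB-468 replicate 2 (0.847). HNRNPA1L3 had 83.8 normalized counts there against 75.1 to 75.7 in the rest of its group, and SRSF5 had 1077 against 987 to 998.

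The response to glucose differed between the lines for 21 members by the limma interaction, given here as MDA-MB-468 minus MDA-MB-231 on the log2 scale. SRSF6 was the 1 with a negative difference, -0.17. Among the SR genes the others were SRSF1 (0.16), SRSF3 (0.22), SRSF5 (0.23), SRSF9 (0.31) and SRSF2 (0.33). Among the hnRNP genes they were HNRNPK (0.15), HNRNPU (0.18), HNRNPC (0.21), HNRNPAB (0.22), HNRNPA1 (0.23), HNRNPLL (0.23), HNRNPUL2-BSCL2 (0.24), HNRNPL (0.26), HNRNPDL (0.29), HNRNPUL2 (0.32), HNRNPR (0.36), HNRNPA3 (0.37), HNRNPM (0.40), HNRNPA1L2 (0.44) and HNRNPA2B1 (0.46).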

How the results depend on the processing

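The counts of members called stayed within 1.5 times their values with these exceptions. In MDA-MB-231 the 16 lower calls became 9 after quantile rescaling and 10 to 15 when a replicate was left out (10 without high-glucose replicate 4), and 1 member was higher after GC correction. For the lines in low glucose, 8 rather than 5 members were lower after GC correction. Leaving out a replicate gave 0 higher calls in MDA-MB-231, 15 to 17 higher and 3 to 4 lower in MDA-MB-468, 20 and 1 for the difference of response, 24 to 25 and 4 to 5 for the lines in low glucose, and 27 to 28 and 4 in high glucose. HNRNPH2 in low glucose changed sign after quantile rescaling (0.067), and the cause was not tested. Deviations of same-numbered samples had correlations from -0.040 to -0.0051 in MDA-MB-231, where no sample correlated best with its own number. In MDA-MB-468 the correlations were 0.017 to 0.032, and 3 of 4 samples correlated best with their own number. Whether the MDA-MB-468 samples were paired was not tested. With the replicate block 0 members were higher and 13 lower in MDA-MB-231, and 17 and 3 in MDA-MB-468. The block gave 20 and 1 for the difference of response, 24 and 5 for the lines in low glucose and 27 and 4 in high glucose. With the block and the length correction 11 were lower in MDA-MB-231 and 18 higher in MDA-MB-468. Depth limits SRSF12, with 2 to 47 reads per group.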
